A study of Mus musculus with 10 samples.

Results

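Bulk RNA-seq of the pinna prominence, the tissue that forms the outer ear, was used to read 10 imprinted genes that are known for setting fetal growth: *Igf2*, *H19*, *Dlk1*, *Meg3*, *Cdkn1c*, *Plagl1*, *Peg3*, *Mest*, *Ndn* and *Grb10*. They were taken by symbol from the 53465 genes of the count table, and all 10 were found and passed the filter on low counts, which 16426 genes passed in all. At embryonic day E14.5, the prominences of 5 wild-type (WT) and 5 homozygous mEC1dup/dup embryos were dissected. The mEC1dup/dup mice carry a CRISPR knock-in of an extra copy of mEC1, an enhancer of the homeobox gene *Hmx1*, so that homozygotes hold 4 copies where WT holds 2, on a C57BL/6J background. Each library is 1 embryo, and the labels do not say which embryos shared a litter. The comparison asks what the gain of the enhancer did to transcript levels in the forming ear.

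An imprinted gene is transcribed mainly from the copy inherited from one parent. Of the 10 genes, *Igf2*, *Dlk1*, *Plagl1*, *Peg3*, *Mest* and *Ndn* are known to be expressed from the paternal allele, and *H19*, *Meg3*, *Cdkn1c* and, in most tissues, *Grb10* from the maternal allele. Paternally expressed genes are in general known to promote growth of the fetus and maternally expressed ones to restrain it, and many of these genes are abundant in fetal mesoderm and fall in level after birth. Counts were summed over both alleles of 1 inbred strain, so parental alleles could not be told apart.

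The labels were checked by *Hmx1*, which had 376 to 526 counts in the WT libraries and 976 to 1356 in the mEC1dup/dup libraries. Library totals lay between 17461544 and 18462073 counts. Some libraries stood apart in ways that follow genotype: *Xist*, transcribed from the inactive X chromosome of females, had at most 5 counts in each WT library and 12812, 19040, 18165, 2096 and 0 counts in mEC1dup/dup replicates 1 to 5. Replicate 4 of mEC1dup/dup lay between the libraries with many *Xist* counts and those near 0, so its sex is unclear, and the reason was not tested. The embryonic share of globin counts was 18.4 to 23.3% in WT and 32.6 to 35.6% in mEC1dup/dup embryos. Sex and this share therefore cannot be fully told apart from genotype in what follows. The share does not overlap between genotypes, so a fit holding both estimates the genotype difference poorly. A changed sign or a lost call in such a fit decides nothing. Of marker lists for cells a pinna prominence can hold, 6 of 8 epidermal genes, 3 of 9 skeletal muscle genes (*Myh3*, *Acta1* and *Ckm*) and 2 of 8 fibroblast genes (*Dpt* and *Lum*) were lower in mEC1dup/dup, none of 8 cartilage and none of 6 endothelial genes passed the test, and among 9 erythroid genes *Hbb-y* and *Hba-x* were higher and *Hba-a2* lower. Of the muscle genes, 2 had positive log2 fold changes (mEC1dup/dup against WT), *Myod1* (0.09) and *Myog* (0.12), and 7 were negative. Of the fibroblast genes, 3 were positive (*Pdgfra*, 0.08, *Twist1*, 0.15, *Prrx1*, 0.07) and 5 negative. None of the positive ones passed the test. Summed epidermal markers ranged from 844 to 1656 CPM (counts of a gene per 1000000 counts of the scaled library total) in WT and from 585 to 821 in mEC1dup/dup, summed muscle markers from 1405 to 2147 and from 848 to 1359, and summed fibroblast markers from 9701 to 15750 and from 10260 to 11840. Abundant genes weigh most in the sums, such as *Col1a1* and *Col3a1* (WT means of 5606 and 5528 CPM) and *Myh3* and *Acta1* (581 and 579). Summed cartilage markers ranged from 4965 to 8130 CPM in WT. In mEC1dup/dup they stood at 2209 in replicate 1 and at 4725 to 6481 in replicates 2 to 5. The part of all these markers in the results below was not tested, and in bulk tissue fewer cells of a type and less RNA per cell cannot be told apart. Markers of liver and placenta, tissues rich in imprinted transcripts, were near 0: the 6 of them, *Alb* and *Afp* included, summed to at most 0.755 CPM in any library.

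None of the 10 genes passed the test between genotypes. A gene was called where its p, adjusted by Benjamini-Hochberg over all 16426 genes, was 0.05 or lower in edgeR's quasi-likelihood test and its average log2 CPM was 1 or higher, a rule that called 1.81% of all tested genes lower and 0.834% higher in mEC1dup/dup. At an unadjusted p under 0.05, 1 of the 10 passed (*H19*), where 16.2% of all tested genes did. This count was 2 without WT replicate 1 (*Cdkn1c* added), WT replicate 4 (*Peg3*), mEC1dup/dup replicate 3 (*Meg3*) or mEC1dup/dup replicate 5 (*Ndn*). It was 3 with replicate number as a block (*Igf2* and *Ndn* added) and 0 with *Xist* or the embryonic globin share as a covariate. In none of the 10 did the 5 mEC1dup/dup embryos lie wholly outside the 5 WT embryos, which happened in 5.07% of all tested genes. DESeq2's Wald test called 1 of the 10 lower, *H19*, and limma-voom called 0. The median log2 fold change (mEC1dup/dup against WT) of the 10 was -0.09, with 8 negative, beside -0.004 over all tested genes, of which 8409 were negative. The plot of CPM by embryo gives each gene's values.

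**Figure D1:**
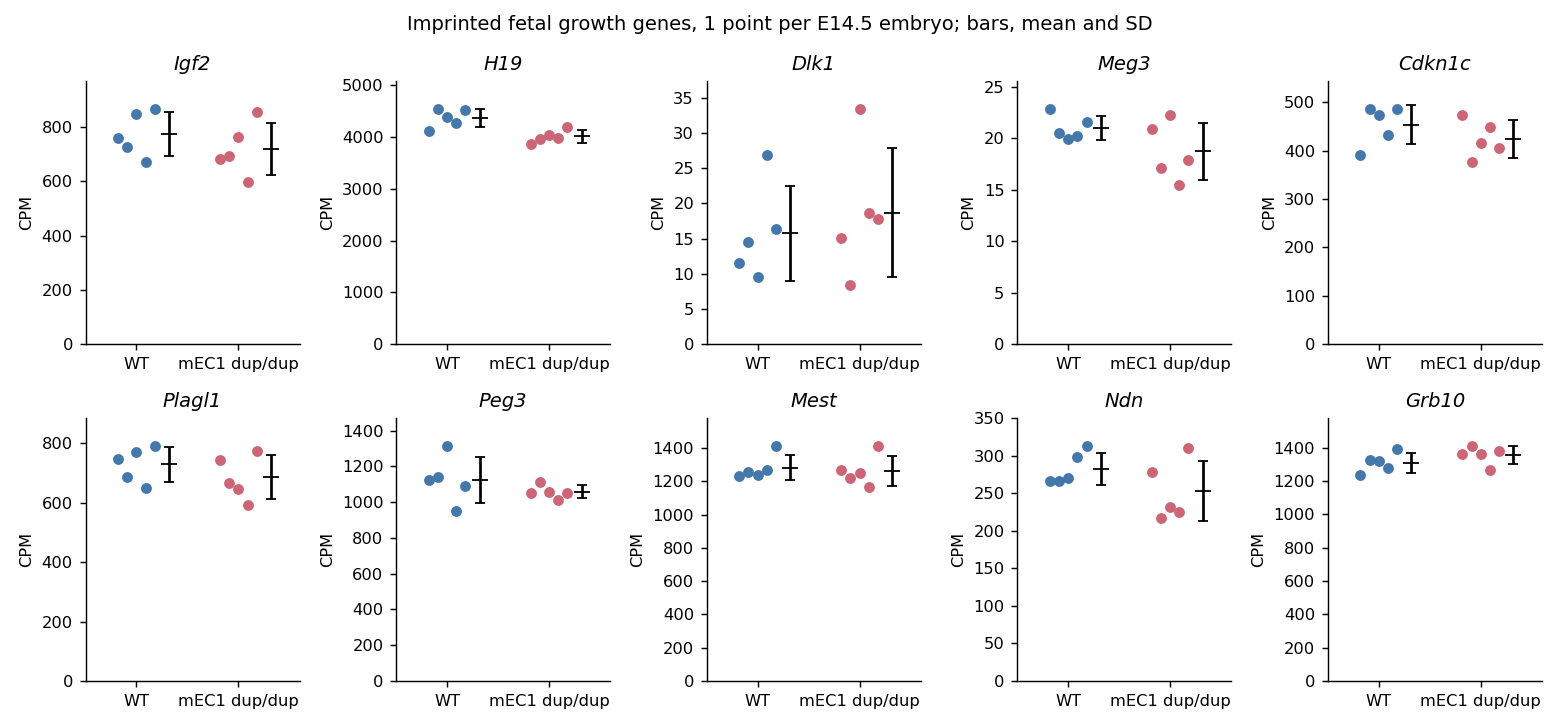
Expression of the 10 imprinted growth genes in CPM (y axis, from 0), with 1 point for each WT (blue) or mEC1dup/dup (red) embryo and the mean ± SD (n = 5) beside the points. The groups overlap in all 10 panels, the *H19* groups least, and the *Dlk1* points spread the most.

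The genes differed far more from one another than between genotypes. Measured per length, as CPM per kilobase of merged exon (RPKM), the mean level in WT was 1535 ± 61.7 (SD, n = 5) for *H19*, 211 ± 19 for *Cdkn1c*, 159 ± 9.26 for *Mest*, 128 ± 5.83 for *Grb10*, 126 ± 13.3 for *Igf2*, 85.2 ± 7.0 for *Plagl1*, 82.3 ± 9.47 for *Peg3*, 74.8 ± 5.71 for *Ndn*, 2.61 ± 1.1 for *Dlk1* and 1.09 ± 0.0619 for *Meg3*. *Grb10* and *Igf2* lay within each other's spread, as did *Plagl1* and *Peg3*, the mean of *Ndn* lay within the SD of *Peg3*, and the other neighbours in this order were separated by more than their SDs. *H19*, a noncoding RNA, held between 0.387 and 0.451% of all counts and ranked 4th to 7th of all genes by count in every library. The 10 genes together held 0.938 to 1.09% of all counts. The low value of *Meg3* rests on 19306 bases of merged exon, in an annotation that may not be the one counted. In its single-cell data the paper lists *Meg3* as a marker of 1 fibroblast cluster, which was not compared here.

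Several of these levels rest on exons that are shared with another gene, which matters because a read in a shared stretch may be dropped or assigned to either gene. In the GENCODE annotation of GRCm39, 65.5% of the *Igf2* exon bases (chr7:142204503-142220694, minus strand) overlap another gene, and 58.4% of all its exon bases overlap the same-strand gene *Gm49394*, which had 0 counts in all 10 libraries. *Mest* (chr6:30723546-30752058, plus strand) shares 47.7% of its exon bases with *Copg2* on the opposite strand, and *Cdkn1c* (chr7:143012069-143014806, minus strand) shares 29.0% with the antisense *Gm44732*, which had 0 to 6 counts. Over the unshared exon bases alone, if all counts came from these, the WT level would be 364 ± 38.4 RPKM for *Igf2*, 304 ± 17.7 for *Mest* and 297 ± 26.8 for *Cdkn1c*, so the order of these 3 and *Grb10* is uncertain. How reads in shared exons were counted is not given in the sources used here, and both library kits named for these samples leave the strand of a read unmarked.

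*Igf2* and *H19* lie next to each other and share enhancers. *Igf2* encodes insulin-like growth factor 2, the main fetal growth factor of the IGF family, and *H19* (chr7:142129262-142133957, minus strand) is an untranslated RNA from the maternal chromosome. *Igf2* stood at 758, 727, 847, 671 and 865 CPM in WT replicates 1 to 5 and at 683, 691, 763, 597 and 856 CPM in mEC1dup/dup replicates 1 to 5. The highest mEC1dup/dup embryo was within the upper WT values, and only 1 mEC1dup/dup embryo, replicate 4, lay below the lowest WT embryo. Its log2 fold change was -0.11 ± 0.09 (SE, n = 5 per genotype, 95% interval -0.30 to 0.09, adjusted p = 0.622 in edgeR's quasi-likelihood test), so a fall to 0.811 of the WT level and a rise to 1.06 of it both lie at the edge of the interval. With single embryos left out, the *Igf2* log2 fold change ran from -0.05 without mEC1dup/dup replicate 4 to -0.18 without mEC1dup/dup replicate 5. It turned to 0.07 ± 0.13 (SE) with *Xist* as a covariate and to 0.14 ± 0.40 with the embryonic globin share as one.

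*H19* was the one gene of the 10 whose interval left out 0. It was measured at 4123, 4540, 4394, 4278 and 4527 CPM in WT replicates 1 to 5 and at 3860, 3967, 4052, 3993 and 4198 CPM in mEC1dup/dup replicates 1 to 5. Of the 5 mEC1dup/dup embryos, 4 lay below every WT embryo, and replicate 5, the library without *Xist* counts, lay above the lowest WT embryo. The log2 fold change was -0.12 ± 0.04 (SE, 95% interval -0.20 to -0.04), a fold of 0.918, with an unadjusted p of 0.00517 and an adjusted p of 0.0999 in edgeR's quasi-likelihood test, which placed it at rank 851 of all tested genes. DESeq2's Wald test gave an adjusted p of 0.0242 and thus a call, edgeR without WT replicate 4 gave 0.0487, and over all alternatives the adjusted p ranged from 0.0242 to 0.898. The difference was -0.07 with *Xist* as a covariate (adjusted p = 0.741), -0.21 with the embryonic globin share as one (adjusted p = 0.898) and -0.09 without the 3 mEC1dup/dup libraries with the most *Xist* counts (adjusted p = 0.600), all in edgeR. The spread between *H19* values was small: 92.6% of genes with an average log2 CPM of at least 1 had a larger SD of log2 CPM within a genotype.

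The ratio of *Igf2* to *H19* counts in a library does not depend on how libraries are scaled. It was 0.184, 0.160, 0.193, 0.157 and 0.191 in WT replicates 1 to 5 and 0.177, 0.174, 0.188, 0.150 and 0.204 in mEC1dup/dup replicates 1 to 5. Both the lowest and the highest ratio were found in mEC1dup/dup embryos. The mean log2 ratio was -2.50 ± 0.14 (SD, n = 5) in WT and -2.49 ± 0.16 in mEC1dup/dup, 0.01 apart (two-sided exact permutation over all arrangements of the embryos, p = 0.897, adjusted over 2 ratios p = 0.897).

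*Dlk1* and *Meg3* form the second pair, on chromosome 12. *Dlk1* (chr12:109418749-109429262, plus strand) encodes a transmembrane ligand related to Notch ligands that is known to hold back the differentiation of fat cells, and *Meg3* (chr12:109506877-109538165, plus strand) is a maternally expressed noncoding RNA. Raw counts of *Dlk1* were 199, 262, 170, 485 and 295 for the WT embryos and 264, 152, 615, 345 and 329 for the mEC1dup/dup embryos in order of replicate number, which is 9.54 to 26.9 CPM and 8.38 to 33.4 CPM. The highest embryo, mEC1dup/dup replicate 3, stood 3.99-fold above the lowest, mEC1dup/dup replicate 2, so both extremes came from one genotype. The coefficient of variation of CPM was 42.8% in WT and 49.2% in mEC1dup/dup, and only 1.68% of genes with an average log2 CPM of at least 1 had a larger SD of log2 CPM within a genotype than *Dlk1* (0.64). The log2 fold change was 0.24 ± 0.32 (SE, 95% interval -0.46 to 0.95, adjusted p = 0.774 in edgeR's quasi-likelihood test), an interval that holds folds from 0.729 to 1.93. Without mEC1dup/dup replicate 3 the estimate turned to -0.07, and without WT replicate 4 it was 0.52.

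**Figure D2:**
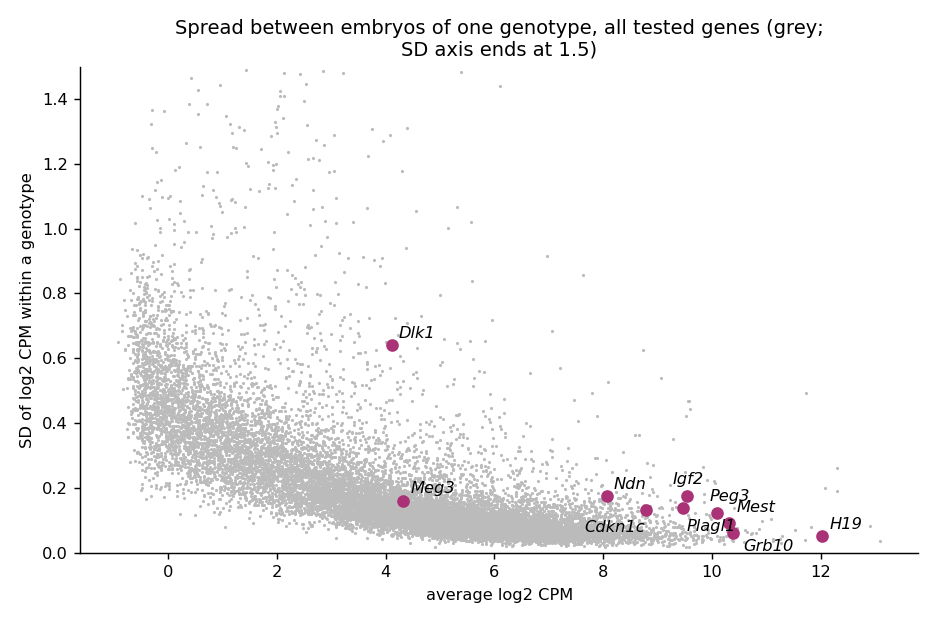
SD of log2 CPM between embryos of one genotype (y axis) against average log2 CPM (x axis) for all tested genes (grey) and the 10 imprinted growth genes (purple). *Dlk1* lies at an SD of 0.64, above nearly all genes of its level, while *Meg3*, at a similar average log2 CPM, lies at 0.16.

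*Meg3* had a like average level in counts but not a like spread. It was measured at 22.8, 20.5, 19.9, 20.2 and 21.6 CPM in WT replicates 1 to 5 and at 20.9, 17.1, 22.3, 15.5 and 17.9 CPM in mEC1dup/dup replicates 1 to 5. In mEC1dup/dup, 3 embryos lay below all WT embryos and the other 2 among them. The log2 fold change was -0.17 ± 0.09 (SE, 95% interval -0.37 to 0.04, adjusted p = 0.430, edgeR), and -0.10 without mEC1dup/dup replicate 4. The estimate was -0.24 without mEC1dup/dup replicate 3, -0.27 with *Xist* as a covariate and -0.33 with the embryonic globin share as one. It was also -0.33 without the 3 mEC1dup/dup libraries with the most *Xist* counts. Adjusted p of *Meg3* was 0.259 or higher over all alternatives. The ratio of *Dlk1* to *Meg3* counts was 0.504, 0.708, 0.479, 1.33 and 0.756 in WT replicates 1 to 5 and 0.721, 0.490, 1.5, 1.20 and 0.994 in mEC1dup/dup replicates 1 to 5. Its mean log2 value was -0.51 ± 0.59 (SD, n = 5) in WT and -0.13 ± 0.63 in mEC1dup/dup, and the difference of 0.38 was smaller than either SD (two-sided exact permutation test, p = 0.349, adjusted over 2 ratios p = 0.698).

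**Figure D3:**
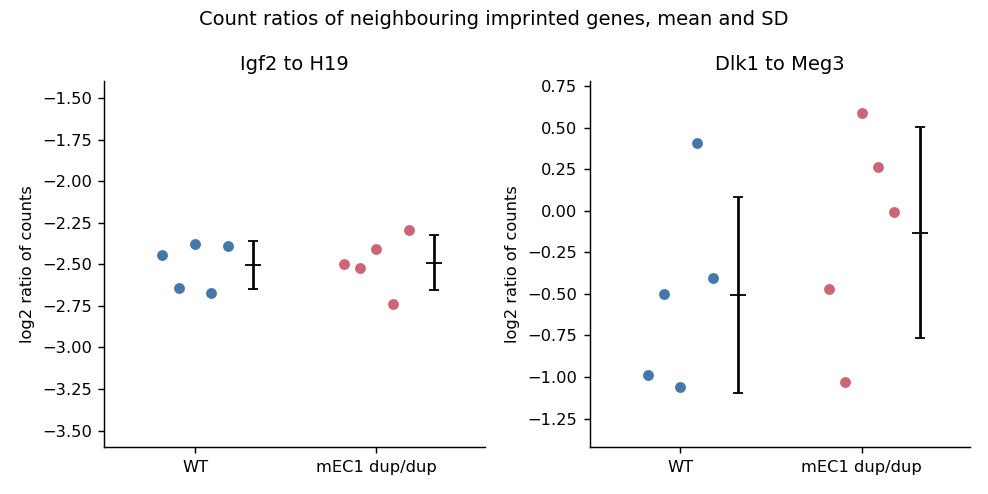
Log2 ratio of the counts of 2 neighbouring imprinted genes in each embryo (y axes of equal span), with the mean ± SD (n = 5) for WT (blue) and mEC1dup/dup (red). The *Igf2* to *H19* ratio stays within -2.74 to -2.29, whereas the *Dlk1* to *Meg3* ratio runs from -1.06 to 0.58.

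*Cdkn1c*, the maternally expressed member of the group that acts directly on the cell cycle, encodes the cyclin-dependent kinase inhibitor p57Kip2. It stood at 392, 485, 474, 432 and 485 CPM in WT replicates 1 to 5 and at 474, 376, 416, 449 and 404 CPM in mEC1dup/dup replicates 1 to 5. The groups overlapped across most of their range, with a log2 fold change of -0.10 ± 0.07 (SE, 95% interval -0.25 to 0.05, adjusted p = 0.546, edgeR), and -0.06 without mEC1dup/dup replicate 2. Other CDK inhibitors did pass the test: of 5 tested besides *Cdkn1c*, 2 were lower and 0 higher. *Cdkn1a*, which encodes p21, had a mean of 72.2 ± 9.71 CPM in WT and 53.1 ± 7.65 in mEC1dup/dup (SD, n = 5), a log2 fold change of -0.44 ± 0.10 (SE, adjusted p = 0.0423, edgeR). *Cdkn2c*, which encodes p18, ranged from 28.1 to 34.8 CPM in WT and from 22.3 to 25.2 CPM in mEC1dup/dup without overlap, with a log2 fold change of -0.35 ± 0.07 (SE, adjusted p = 0.0143, edgeR). The call of *Cdkn1a* was lost without WT replicates 1, 3 or 5 or mEC1dup/dup replicates 2, 3 or 4. Its log2 fold change was -0.50 to -0.37 with single embryos left out. Both calls were lost with *Xist* or the embryonic globin share as a covariate. The log2 fold changes there were -0.31 and -0.77 for *Cdkn1a* and -0.34 and -0.14 for *Cdkn2c* (adjusted p of both genes over all alternatives 0.000454 to 0.954). Both calls were also lost without the 3 mEC1dup/dup libraries with the most *Xist* counts, at -0.47 for *Cdkn1a* and -0.38 for *Cdkn2c*.

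*Grb10* encodes an adaptor that binds the insulin and IGF1 receptors and damps their signal. *Grb10* (chr11:11880498-11988683, minus strand) ranged from 1236 to 1394 CPM in WT (median 1322) and from 1266 to 1411 CPM in mEC1dup/dup, and its log2 fold change was 0.05 ± 0.04 (SE, 95% interval -0.04 to 0.14, adjusted p = 0.615, edgeR), and 0.03 without WT replicate 1. Its interval was the narrowest but *H19*'s, and changes beyond folds of 0.973 and 1.1 lie outside it. Of 12 genes of IGF and insulin signalling, from *Igf1* and the receptors *Igf1r* and *Insr* to *Akt1* and *Akt2*, 1 was lower and 0 higher. That gene was *Igf2r*, itself imprinted and maternally expressed, whose receptor takes up IGF2 and delivers it for breakdown. *Igf2r* was measured at 323, 278, 313, 249 and 313 CPM in WT replicates 1 to 5 and at 247, 253, 225, 226 and 253 CPM in mEC1dup/dup replicates 1 to 5, with a log2 fold change of -0.29 ± 0.07 (SE, adjusted p = 0.0377, edgeR). WT replicate 4 lay among the mEC1dup/dup embryos. The call was lost without WT replicates 1, 2, 3 or 5, without mEC1dup/dup replicates 2, 3, 4 or 5, and with either covariate, with adjusted p over all alternatives from 0.00165 to 0.918, while the estimate was -0.35 to -0.26 with single embryos left out and -0.25 with *Xist* and turned to 0.244 with the globin share.

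*Plagl1* and *Peg3* encode zinc finger proteins, and PLAGL1 is known to regulate other imprinted genes, *Igf2* and *H19* among them. *Plagl1* (chr10:12936248-13007438, plus strand) stood at 748, 686, 772, 649 and 792 CPM in WT replicates 1 to 5 and at 746, 669, 647, 594 and 775 CPM in mEC1dup/dup replicates 1 to 5. The mEC1dup/dup values reached from below the lowest to near the highest WT value, and the log2 fold change was -0.09 ± 0.07 (SE, 95% interval -0.25 to 0.07, adjusted p = 0.616, edgeR). *Peg3* (chr7:6706882-6733468, minus strand) ranged from 952 to 1314 CPM in WT and from 1012 to 1114 CPM in mEC1dup/dup, so all mEC1dup/dup embryos lay within the WT range. Its log2 fold change was likewise -0.09 ± 0.07 (SE, adjusted p = 0.563, edgeR), and it was -0.03 without WT replicate 3 and -0.15 without WT replicate 4. That of *Plagl1* was -0.04 without mEC1dup/dup replicate 4, -0.06 without WT replicate 5 and -0.14 without mEC1dup/dup replicate 5. With *Xist* as a covariate the *Plagl1* estimate turned to 0.03. With the embryonic globin share as one it was 0.26 for *Plagl1* and 0.32 for *Peg3*.

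The promoter windows of 8 of the 10 genes were matched by symbol in a RefSeq table of GRCm38.p6 (250 bases before to 50 after each start, 15 windows for these genes). They were searched on both strands for GGGGCCCC, the core of the PLAGL1 site, which reads the same on both strands and was held by 1 of the 15 windows and by 1.08% of all 32851 windows. The second search was for CAAGTG, the core of sites bound by HMX proteins (CACTTG on the other strand), held by 2 of the 15 windows and by 13.56% of all, so the share among these windows was close to that of all windows. The 3 windows with a match are shown so that the letters searched for can be read in place. Each is given 5′ to 3′ on the minus strand with the match in capitals, from 250 bases before the start to the start or, for *Igf2*, 11 bases past it. A match is only a run of letters, and no binding was measured here.
*Peg3*, chr7:6730420-6730669: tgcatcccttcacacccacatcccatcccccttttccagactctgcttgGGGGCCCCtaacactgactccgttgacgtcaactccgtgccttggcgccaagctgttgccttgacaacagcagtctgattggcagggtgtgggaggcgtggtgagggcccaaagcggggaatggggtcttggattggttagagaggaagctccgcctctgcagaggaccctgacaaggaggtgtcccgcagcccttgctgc
*Igf2*, chr7:142658794-142659054: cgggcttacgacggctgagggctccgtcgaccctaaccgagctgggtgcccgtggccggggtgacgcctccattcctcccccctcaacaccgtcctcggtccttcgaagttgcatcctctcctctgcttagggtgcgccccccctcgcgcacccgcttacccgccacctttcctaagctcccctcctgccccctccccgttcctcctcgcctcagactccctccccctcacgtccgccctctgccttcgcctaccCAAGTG
*Grb10*, chr11:12027972-12028221: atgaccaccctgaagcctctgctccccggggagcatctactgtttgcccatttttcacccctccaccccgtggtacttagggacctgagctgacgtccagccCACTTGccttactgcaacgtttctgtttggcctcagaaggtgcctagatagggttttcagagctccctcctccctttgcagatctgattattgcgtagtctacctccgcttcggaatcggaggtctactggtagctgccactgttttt

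*Mest* encodes a protein of the alpha/beta hydrolase fold that marks fetal mesoderm, and *Ndn* encodes necdin, which is known to hold cells out of division. *Mest* had 1235, 1254, 1240, 1269 and 1414 CPM in WT replicates 1 to 5 and 1270, 1222, 1249, 1167 and 1414 CPM in mEC1dup/dup replicates 1 to 5. In each genotype 1 embryo, replicate 5, stood above the others, and the log2 fold change was -0.02 ± 0.05 (SE, 95% interval -0.14 to 0.09, adjusted p = 0.892, edgeR). With *Xist* as a covariate the *Mest* estimate turned to 0.10. *Ndn* (chr7:61995473-62000010, plus strand) had 266, 266, 271, 298 and 313 CPM in WT replicates 1 to 5 and 278, 217, 232, 225 and 310 CPM in mEC1dup/dup replicates 1 to 5. Of the mEC1dup/dup embryos, 3 lay below every WT embryo and the other 2 within the WT range. The log2 fold change was -0.16 ± 0.09 (SE, 95% interval -0.36 to 0.03, adjusted p = 0.421, edgeR), and -0.25 without mEC1dup/dup replicate 5. With *Xist* as a covariate it turned to 0.08.

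**Figure D4:**
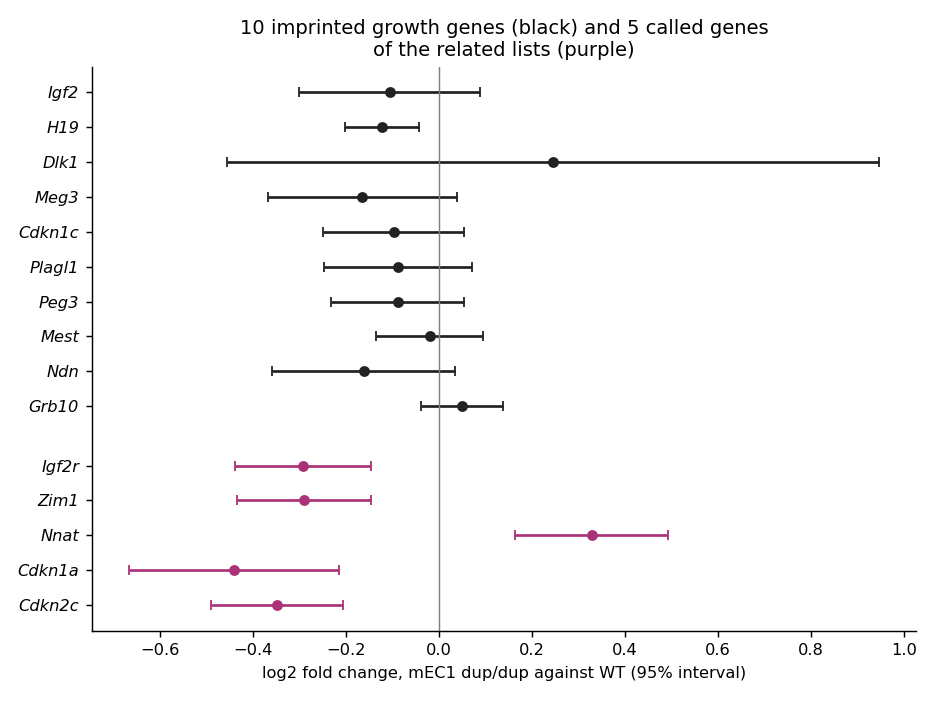
Log2 fold change between mEC1dup/dup and WT (x axis) with its 95% interval for the 10 imprinted growth genes (black) and for the 5 genes called in the related lists (purple). Of the 10, the interval of *H19* alone (-0.20 to -0.04) leaves out 0, and that of *Dlk1* (-0.46 to 0.95) is the widest.

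Several of these transcripts host microRNAs, which are shown because they are further products of the same imprinted transcripts. Neither the mature microRNAs nor their precursors were measured as such here. The mature sequences follow from RefSeq, with the seed (bases 2 to 8) in capitals. No seed is shared between them.
miR-675-5p, in *H19*: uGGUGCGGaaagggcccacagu
miR-675-3p, in *H19*: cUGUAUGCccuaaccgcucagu
miR-483-5p, in *Igf2*: aAGACGGGagaagagaagggag
miR-483-3p, in *Igf2*: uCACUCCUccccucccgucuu
miR-335-5p, in *Mest*: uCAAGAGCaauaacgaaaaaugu
miR-335-3p, in *Mest*: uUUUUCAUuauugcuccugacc
Libraries of polyadenylated RNA do not measure mature microRNAs. *Mir675* lies in an *H19* exon and the other two of these precursors lie in introns of their hosts. *Meg3* exons hold 2 more, *Mir770* and *Mir1906-1*, which had 0 counts in all libraries and whose sequences are not shown. On the precursor genes themselves, *Mir675* (chr7:142130801-142130884) had 0 counts in all 10 libraries, although *H19* around it had at least 67556, *Mir335* (chr6:30741298-30741395) had 3 to 11 counts and *Mir483* (chr7:142208661-142208733) had 18 to 38. *Mir483* had a log2 fold change of 0.01 ± 0.25 (SE, adjusted p = 0.986, edgeR). Counts on *Mir335* and *Mir483* may be reads of the host transcript around them.

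Other genes of the same imprinted domains were read next. In the *Igf2* and *H19* domain none of the 3 other tested genes passed the test, among them the antisense *Igf2os* (-0.08 ± 0.12, log2 fold change ± SE) and *Th* (-0.77 ± 0.92), which encodes tyrosine hydroxylase, and *Ins2*, an insulin gene, was too low to test. In the *Cdkn1c* domain none of 9 other genes passed. The paternally expressed noncoding *Kcnq1ot1* had -0.16 ± 0.14, and the tetraspanin gene *Cd81*, whose groups did not overlap, had -0.12 ± 0.04 (adjusted p = 0.105, edgeR). In the *Dlk1* and *Meg3* domain none of 5 others passed. *Dio3*, which encodes the deiodinase that inactivates thyroid hormone, had 0.33 ± 0.14 (adjusted p = 0.279), and the noncoding *Mirg* had -0.18 ± 0.08 (adjusted p = 0.282, both edgeR). None of 4 others around *Mest*, 5 around *Ndn*, 4 around *Grb10* or 3 around *Plagl1* passed the test, and the estimate farthest from 0 among those with an average log2 CPM of at least 1 was that of *Cpa4* (-0.32 ± 0.23), *Snrpn* (-0.14 ± 0.34), *Cobl* (-0.26 ± 0.08) and *Ltv1* (0.04 ± 0.06) in turn. Beside *Peg3*, 1 of 2 others, the maternally expressed zinc finger gene *Zim1*, was lower at 150, 162, 193, 154 and 173 CPM in WT replicates 1 to 5 and 132, 143, 137, 123 and 144 CPM in mEC1dup/dup replicates 1 to 5. The *Zim1* groups did not overlap, and its log2 fold change was -0.29 ± 0.07 (SE, adjusted p = 0.0369, edgeR). That call was lost without WT replicates 2, 3 or 5 or mEC1dup/dup replicates 1, 2, 3 or 4, where adjusted p ranged up to 0.0901, and with *Xist* (adjusted p = 0.528) or the embryonic globin share (adjusted p = 0.918) as a covariate. The *Zim1* log2 fold change was -0.33 to -0.23 with single embryos left out, -0.24 with *Xist* and -0.28 with the globin share.

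Among other imprinted genes, those known to be paternally expressed numbered 21 tested, with 1 higher, 0 lower and a median log2 fold change of -0.08. The gene that rose was *Nnat*, which encodes the small membrane protein neuronatin. *Nnat* stood at 329, 325, 332, 417 and 362 CPM in WT replicates 1 to 5 and at 426, 433, 432, 517 and 408 CPM in mEC1dup/dup replicates 1 to 5, overlapping by 1 embryo of each genotype, with a log2 fold change of 0.33 ± 0.08 (SE, adjusted p = 0.0394, edgeR). Without WT replicates 1, 2, 3 or 5 or mEC1dup/dup replicates 2, 3 or 4 the adjusted p of *Nnat* rose to between 0.0666 and 0.103. The *Nnat* log2 fold change was 0.27 to 0.39 with single embryos left out. With *Xist* as a covariate the adjusted p was 0.501 at an estimate of 0.28. With the embryonic globin share as one the estimate turned to -0.16 (adjusted p = 0.952, edgeR). Of 17 tested genes known to be maternally expressed in some tissue, 2 were lower (*Igf2r* and *Zim1*), 0 were higher and the median was -0.004. Whether the genes of either list are imprinted in the pinna was not tested. Among the 10 growth genes, the median was -0.09 for the 6 paternally expressed and -0.11 for the 4 maternally expressed ones. No test between these groups was made, and the calls of *Nnat*, *Igf2r* and *Zim1* were all lost without the 3 mEC1dup/dup libraries with the most *Xist* counts, which left 2 embryos of that genotype, while their log2 fold changes there were 0.39, -0.30 and -0.32.

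**Figure D5:**
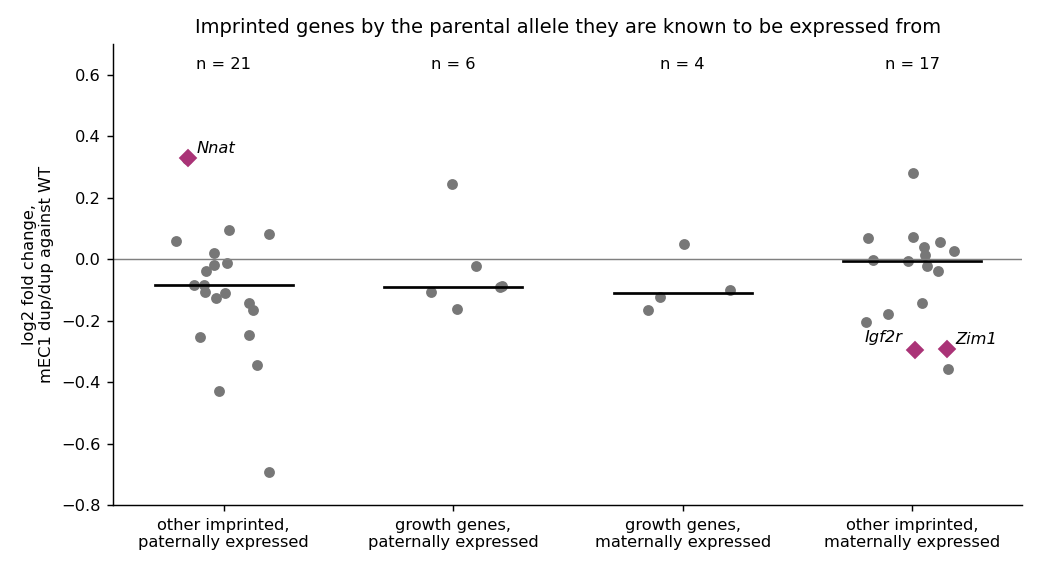
Log2 fold change between mEC1dup/dup and WT (y axis) of single imprinted genes, grouped by the parental allele they are known to be expressed from, with the median of each group as a line and called genes as purple diamonds. The medians are -0.08 (n = 21), -0.09 (n = 6), -0.11 (n = 4) and -0.004 (n = 17) from left to right. Imprinting in the pinna was not tested.

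Whether the growth genes moved together from embryo to embryo was examined over all 10 embryos in log2 CPM. Of 45 pairs, 36 had a positive correlation, 6 passed an unadjusted permutation p of 0.05 and 0 passed after Benjamini-Hochberg adjustment over the 45. The same values over pairs of all tested genes were not computed, so these counts and the median r below have no baseline. *Igf2* with *Plagl1* had a Pearson r of 0.827 (permutation p = 0.00368, adjusted p = 0.0837) and a Spearman rho of 0.782 (permutation p = 0.0108, adjusted p = 0.242), and r was 0.637 without WT replicate 5 and mEC1dup/dup replicate 4, the embryos farthest from the *Igf2* median. *Mest* with *Ndn* had an r of 0.803 (permutation p = 0.00372, adjusted p = 0.0837) and a rho of 0.879 (permutation p = 0.00143, adjusted p = 0.0644), and r was 0.699 without replicate 5 of both genotypes. *Dlk1* with *Peg3* was the largest negative one, with an r of -0.70 (permutation p = 0.0249, adjusted p = 0.216) and a rho of -0.75 (permutation p = 0.0171, adjusted p = 0.257), and r was -0.92 without mEC1dup/dup replicates 2 and 3. Taken as deviations from the genotype means, these 3 correlations were 0.80, 0.85 and -0.69.

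The median r over all 45 pairs was 0.273. *Igf2* with *H19* had an r of 0.562 (permutation p = 0.0927, adjusted over the 2 neighbour pairs p = 0.185) and a rho of 0.503 (permutation p = 0.145, adjusted p = 0.289), and r was 0.354 without WT replicate 5 and mEC1dup/dup replicate 4. *Dlk1* with *Meg3* had an r of 0.187 (permutation p = 0.606, adjusted p = 0.606) and a rho of 0.103 (permutation p = 0.785, adjusted p = 0.785), and r was -0.35 without mEC1dup/dup replicates 2 and 3, so its sign rested on those embryos.

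Across all tested genes, the patterns most like that of *Igf2* over the 10 embryos, by Pearson r of log2 CPM, included those of *Xpo7* (0.908) and *Zfp9* (0.905). For *H19* they were *Sh3bgrl3* (0.945), *Dnajb3* (0.924) and *Pgrmc2* (0.916), and for *Dlk1* *Rp9* (0.938) and 2 pseudogenes, *Rpl17-ps5* (0.921) and *Ndufab1-ps* (0.907). For *Meg3* they were *Gm49163* (0.901), *Lrrn4cl* (0.897) and *Imp4* (0.896). These are the highest of the values over all other tested genes and share the libraries and their scaling.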

How the data were processed

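Pinna prominences of 5 WT and 5 mEC1dup/dup E14.5 embryos were profiled by RNA-seq of polyadenylated RNA. The table the authors deposited gives raw counts per gene from featureCounts, after trimming in fastp and alignment by STAR against GRCm39. The annotation release and the handling of strand and of reads with several matches are not given in the sources used here, which also name 2 different library kits.

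Low-count genes were removed by filterByExpr, libraries were scaled by TMM, and genotype alone was fitted with glmQLFit and glmQLFTest in edgeR version 4.0.16 under R version 4.3.3. Calls needed an adjusted p (Benjamini-Hochberg over all tested genes) up to 0.05 and an average log2 CPM from 1 upwards. CPM are counts per 1000000 of the TMM-scaled library total of the filtered genes, and log2 CPM used a prior count of 2. SE are the size of the log2 fold change divided by the square root of F. Ratios were compared by exact permutation over all arrangements and correlations by 100000 permutations (scipy version 1.17.1). The fit was tested on simulated data. P-values measure the spread between these embryos, and at 17461544 to 18462073 counts per library, depth limits genes with few counts.

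The 10 genes and all lists were chosen with earlier results of these data known. Named genes were the 10 growth genes, *Hmx1*, *Xist*, the called genes of each list or otherwise genes with large changes in it, the 3 genes most like *Igf2*, *H19*, *Dlk1* and *Meg3*, and genes making up small counts. Of the genes most like *Igf2*, 1 is not reported here. The microRNA genes and single domain genes were named after their values were seen. Positions are from GENCODE vM39 (GRCm39), which matched 49355 of the 53465 genes, and promoters are on GRCm38.p6. Alternatives were other scalings, filters, thresholds and tests (DESeq2 version 1.42.0, limma version 3.58.1), the replicate block, *Xist* or the embryonic globin share (*Hbb-y*, *Hbb-bh1* and *Hba-x* of all globin counts) as a further term, and single embryos left out. Leaving out 3 mEC1dup/dup libraries by *Xist* was chosen after seeing the data. No chi-square test between libraries of one genotype gave a value per degree of freedom under 2.48, so none was a copy.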

Additional observations from a re-analysis of the deposited data

Results flagged for a closer look

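Of 24 sets of 5 values (each of the 10 genes and both ratios in each genotype), 1 held an embryo far from the others, where chance gives about 1 in 20. *Mest* stood at 1414 CPM in WT replicate 5, and the next WT embryo stood at 1269 CPM. The gap was 0.811 of the whole WT range, above Dixon's critical value of 0.71 for 5 samples. In mEC1dup/dup, replicate 5 was also the highest, at 1414 CPM, but the gap there did not pass. The cause was not tested.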

How the results depend on the processing

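Over 21 alternatives for each of the 10 genes (210 fold changes), 195 kept their direction and side of the threshold, 13 changed sign and 2, both of *H19*, gained a call. The number of the 10 called lower was 1 in place of 0 under DESeq2's Wald test and at an adjusted p of at most 0.1, and 0 to 1 with single embryos left out. With *Xist* as a covariate the log2 fold change became 0.069 for *Igf2*, 0.033 for *Plagl1*, 0.102 for *Mest* and 0.078 for *Ndn*. With the globin share in that place it became 0.140 for *Igf2*, -2.38 for *Dlk1*, 0.26 for *Plagl1*, 0.32 for *Peg3*, -0.17 for *Grb10*, -0.21 for *H19* (same direction), 0.244 for *Igf2r* and -0.16 for *Nnat*. The SE there was 0.404 for *Igf2* and 1.2 for *Dlk1*, beside 0.0906 and 0.325 in the main fit, because the share does not overlap between genotypes. *Mest* was at 0.0097 without the 3 mEC1dup/dup libraries with the most *Xist* counts, and with single embryos left out it ran from -0.064 to 0.018 and *Dlk1* from -0.073 to 0.52. The *Igf2* to *H19* difference was -0.054 in medians and -0.037 to 0.074 with single embryos left out (*Dlk1* to *Meg3*: 0.20 to 0.61).

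Over all genes, 297 lower and 137 higher calls became 510 and 321 under the Wald test, 488 and 324 at an adjusted p of 0.1, 62 and 16 at 0.01, 1 and 2 with *Xist*, 0 and 0 with the globin share (793 genes at an unadjusted p under 0.05) and 0 and 1 without the 3 libraries. At 0.01, with either covariate and without the 3 libraries, other imprinted genes called lower or higher, IGF and insulin genes lower and CDK inhibitors lower all came to 0. With single embryos left out, these ran from 0 to 2, 0 to 1, 0 to 1 and 1 to 2, and over all genes from 120 to 476 lower and 34 to 179 higher, the fewest without mEC1dup/dup replicate 3 and the most without WT replicate 4. The cause was not tested.

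The labels give same-numbered libraries nothing in common but the number. The paper states that replicates in its mouse work were siblings taken from separate litters. Whether same-numbered libraries shared a litter is not given in the sources used here. Deviations of same-numbered libraries correlated at -0.06 to 0.34 (mean 0.162), and 4 of 10 libraries correlated best with their own number. With the replicate block 487 genes were lower and 200 higher, 0 of the 10 were called and 3 had an unadjusted p under 0.05 (*Igf2*, *H19* and *Ndn*; *H19* at -0.12, adjusted p = 0.0545, *Igf2* at -0.11, adjusted p = 0.112, edgeR), and the ratio differences were 0.01 (exact permutation p = 0.750) and 0.38 (exact permutation p = 0.50).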
